A study of Mus musculus with 16 samples.

Results

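Complement is a defence cascade of plasma and tissue proteins. C1q, built from the products of C1qa, C1qb and C1qc, recognises targets and activates proteases that cut C4 and then C3, whose fragments mark the target for uptake. Small fragments of C3 and C5 signal to cells through their own receptors, and C1 inhibitor, the product of Serping1, holds the first proteases in check. In the brain, C1q is made largely by microglia and C4 by astrocytes among other cells, and the cascade is known for tagging synapses for removal.

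Described here are 8 complement genes and regulators (C1qa, C1qb, C1qc, C3, C4b, Serping1, C3ar1 and C5ar1) of 38924 genes counted in 16 mouse thalamus libraries. They were chosen by name to set C4b beside its pathway, because C4b had differed between the genotypes in these libraries. The 4 groups, with 4 libraries each, were libraries labelled RGS4 KO after CFA, WT after CFA, naive libraries labelled RGS4 KO and naive WT, all labelled as ventral posterolateral thalamus, a relay nucleus for touch and pain. CFA is left as an abbreviation in the labels. Pain studies use it for complete Freund's adjuvant, injected to cause inflammation. The series design names a floxed RGS4 line in which a viral Cre lowered RGS4 in this nucleus, whereas the genotype labels of the samples read RGS4 KO and WT and name no Cre or virus. No age, strain, time after CFA or treatment of the WT mice is stated. Each library pooled 4 punches of 12 gauge from 2 mice, so targeted and untargeted cells are read together. The mice are labelled female, although the protocol names males.

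Total counts ran from 18.1 M to 78.8 M per library, with a median of 42.6 M. Rgs4, a brake on G protein signalling and the targeted gene, had no detectably lower level in libraries labelled RGS4 KO under either treatment. It was at 78.0, 80.5, 82.1 and 84.5 CPM (counts scaled to the TMM-adjusted library size) in naive libraries labelled RGS4 KO, against 78.4, 85.2, 77.3 and 82.6 CPM in naive WT. After CFA it was at 77.5 to 90.2 CPM in libraries labelled RGS4 KO and 81.1 to 96.8 CPM in WT, with means of 84.1 and 89.3 CPM. The log2 difference was 0.01 (SE 0.05, edgeR adjusted p = 0.979) in naive libraries and -0.09 (SE 0.05, edgeR adjusted p = 0.519) after CFA. The group is therefore named here by its label. Summed levels of 8 markers of oculomotor and Edinger-Westphal neurons, cells of the neighbouring midbrain, set libraries apart. Naive libraries 6 and 7 labelled RGS4 KO had sums of 205.5 and 300.5 CPM, while the other 6 naive libraries lay between 43.0 and 70.7 CPM. After CFA the sums were 80.8 to 220.8 CPM in libraries labelled RGS4 KO and 288.9 to 434.1 CPM in WT. Calls that change without naive libraries 6 and 7 are given with and without them.

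All 8 genes were detected in every library and passed the filter on low counts. Divided by exon length, which allows genes to be compared, levels over the 16 libraries were highest for C1qb at 19.0 ± 0.985 RPKM (SD, n = 16). C1qa followed at 17.9 ± 1.01 RPKM and C1qc at 9.69 ± 0.469 RPKM. C4b was at 2.57 ± 0.611 RPKM, Serping1 at 2.04 ± 0.273 RPKM and C3 at 0.477 ± 0.102 RPKM. The receptors C3ar1, at 0.325 ± 0.0492 RPKM, and C5ar1, at 0.191 ± 0.0561 RPKM, were lowest. The ranges over libraries did not overlap between C1qa and C1qc, C1qc and C4b, or Serping1 and C3. Those of C1qb and C1qa overlapped, with C1qb higher in 14 of 16 libraries, as did those of C4b and Serping1, with C4b higher in 12. In naive libraries labelled RGS4 KO the order of these 2 means was the other way, with C4b at 1.90 ± 0.382 RPKM and Serping1 at 2.06 ± 0.258 RPKM, while in naive WT they were 3.07 ± 0.542 and 1.98 ± 0.343 RPKM (SD, n = 4 each). C3 exceeded C3ar1 in 14 libraries and C3ar1 exceeded C5ar1 in all 16, although the ranges of each pair overlapped.

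**Figure D1:**
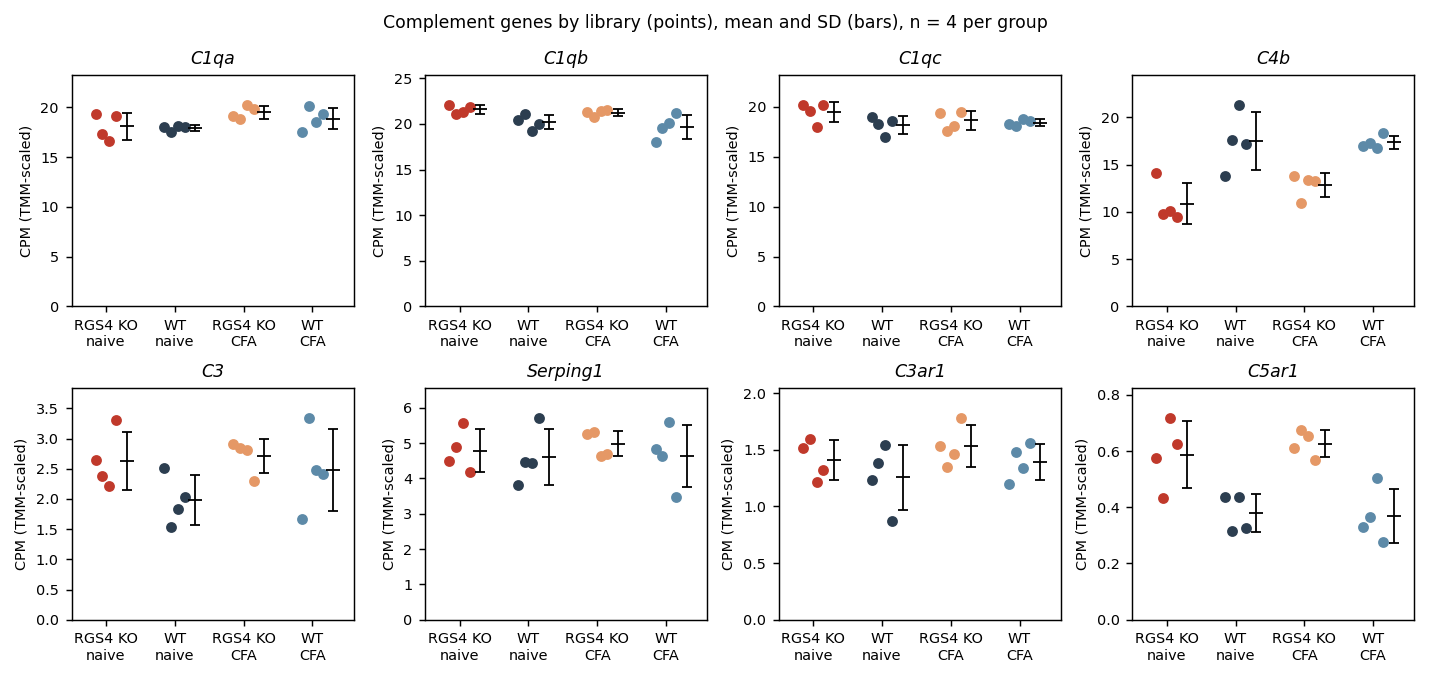
Level of each of the 8 complement genes in CPM (y axis, TMM-scaled) by group (x axis), with points for single libraries and bars for the mean and SD (n = 4 per group). C4b lies between 9.44 and 14.08 CPM in the libraries labelled RGS4 KO and between 13.78 and 21.33 CPM in WT, while the C1q genes stay within 16.6 to 22.1 CPM throughout.

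C4b, which encodes the complement component cut by C1s to form the C3 convertase, had the lower level in libraries labelled RGS4 KO. The gene (ENSMUSG00000073418.4, protein coding) lies on the minus strand at chr17:34728380-34743882 in mm10. In naive libraries labelled RGS4 KO it was at 14.1, 9.82, 10.04 and 9.44 CPM, against 13.8, 17.6, 21.3 and 17.2 CPM in naive WT. These groups overlapped, because library 5 labelled RGS4 KO lay above library 1 of WT. After CFA, C4b was at 13.8, 10.95, 13.4 and 13.2 CPM in libraries labelled RGS4 KO, against 16.9, 17.3, 16.8 and 18.4 CPM in WT. All 4 CFA libraries labelled RGS4 KO lay below all 4 of WT, and over both treatments 7 of 8 libraries labelled RGS4 KO lay below the lowest WT library. After CFA 4.25% of tested genes were separated in this direction, and the share over both treatments together was not counted.

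The means of C4b were 10.9 ± 2.17 CPM in naive libraries labelled RGS4 KO and 17.5 ± 3.09 CPM in naive WT (SD, n = 4 each), a fold of 0.627 with a 95% interval of 0.513 to 0.766. After CFA they were 12.8 ± 1.27 CPM in libraries labelled RGS4 KO and 17.3 ± 0.706 CPM in WT (SD, n = 4 each), a fold of 0.740 with an interval of 0.612 to 0.896. The log2 difference averaged over both treatments was -0.55 (SE 0.09), and -0.50 without naive libraries 6 and 7 labelled RGS4 KO. C4b was chosen from these contrasts, so its values there are a description, and whether it passes a threshold in them is no independent result. The spread of C4b within groups, a pooled coefficient of variation of 14.4%, was larger than the 4.6% that counting alone gives.

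C4b has a close copy, C4a, which lies 65.21 kb away on the same strand (chr17:34809092-34823464; ENSMUSG00000015451.10). In mice C4a is known to encode the sex-limited protein, a C4-like protein without the activity of C4, and the GENCODE annotation used here types it as a processed transcript. The coding sequence of C4b matched C4a at 5003 of 5204 aligned bases (96.1%), with 1 identical run of 433 bases. Of the 50-base words of the C4b transcript 35.2% also occur in C4a. A 50-base read from these words could not be placed uniquely and could be lost or moved between the copies. A longer read could also span a base that differs. None of the other 7 genes shared a 50-base word with another gene's transcript. The window of 90 coding bases with the most differences (C4b coding bases 2675 to 2764, chr17:34735430-34735519 of mm10, minus strand) shows where reads can tell the copies apart. Both sequences are from the GENCODE transcripts, 5′ to 3′, and capitals mark the 14 bases that differ.
C4b: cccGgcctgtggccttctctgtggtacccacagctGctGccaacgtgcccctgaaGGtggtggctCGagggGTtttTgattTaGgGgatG
C4a: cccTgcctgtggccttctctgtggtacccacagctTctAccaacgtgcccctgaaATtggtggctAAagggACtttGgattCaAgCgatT

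C4a was counted at 1.66 to 2.33 CPM over the 16 libraries. It was at 1.66 to 1.99 CPM in naive libraries labelled RGS4 KO and 1.77 to 2.18 CPM in naive WT. Averaged over treatments its log2 difference between genotypes was -0.11 (SE 0.08, adjusted p = 0.68). The sum of both copies, which a shift of reads from one to the other would leave unchanged, was 12.7 ± 2.17 CPM in naive libraries labelled RGS4 KO and 19.5 ± 3.14 CPM in naive WT (SD, n = 4 each). After CFA the sum was 14.7 ± 1.38 CPM in libraries labelled RGS4 KO and 19.4 ± 0.62 CPM in WT.

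The C1q genes, whose products form the recognition molecule, held a narrow range. They lie side by side on the minus strand of chromosome 4, C1qb at chr4:136880129-136886187 (ENSMUSG00000036905.8), C1qc at chr4:136889804-136893065 (ENSMUSG00000036896.5) and C1qa at chr4:136895917-136898803 (ENSMUSG00000036887.5). C1qa was at 19.3, 17.3, 16.6 and 19.1 CPM in naive libraries labelled RGS4 KO, against 18.1, 17.5, 18.2 and 18.0 CPM in naive WT. C1qb was at 22.1, 21.1, 21.4 and 21.9 CPM in naive libraries labelled RGS4 KO, against 20.4, 21.1, 19.3 and 20.03 CPM in naive WT. C1qc was at 20.2, 19.6, 18.0 and 20.2 CPM in naive libraries labelled RGS4 KO, against 19.0, 18.3, 16.95 and 18.6 CPM in naive WT. The genotypes overlapped for each of the 3 genes. After CFA, C1qa lay at 18.8 to 20.3 CPM in libraries labelled RGS4 KO and 17.6 to 20.1 CPM in WT, and C1qb at 20.8 to 21.5 CPM in libraries labelled RGS4 KO and 18.0 to 21.2 CPM in WT. C1qc then lay at 17.6 to 19.5 CPM in libraries labelled RGS4 KO and 18.1 to 18.8 CPM in WT.

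Averaged over treatments, the log2 differences between libraries labelled RGS4 KO and WT were 0.03 (SE 0.04) for C1qa, 0.10 (SE 0.03) for C1qb and 0.06 (SE 0.04) for C1qc. For C1qb the 95% interval was 0.03 to 0.17, and 6 of 8 libraries labelled RGS4 KO lay above the highest WT library. The share of all tested genes with such a split was not counted. Within groups the 3 genes varied by 4.1% to 5.0%, against 3.6% to 3.9% from counting alone. The ratio of C4b to the sum of the C1q genes was 18.3% ± 3.21 in naive libraries labelled RGS4 KO and 31.2% ± 6.25 in naive WT (SD, n = 4 each). After CFA it was 21.6% ± 1.69 in libraries labelled RGS4 KO and 30.4% ± 1.02 in WT. Microglia markers, as a list of 12 genes with 0 at 0 reads, summed to 250.8 to 294.3 CPM in naive libraries labelled RGS4 KO and 250.5 to 264.5 CPM in naive WT. After CFA they summed to 256.5 to 268.7 CPM in libraries labelled RGS4 KO and 247.0 to 258.0 CPM in WT. Of the 12, 0 were called in the 3 genotype contrasts by edgeR, where 1.45% of tested genes were called in naive libraries, 1.6% after CFA and 3.73% on average. In the average contrast 10 of the 12 lay above 0, with a median log2 difference of 0.061. There 5 of the 12 had an unadjusted p under 0.05, as had 2630 of the 18350 tested genes.

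The promoters of C1qb and C1qc are shown because the genes adjoin. Over the 16 libraries C1qb had a mean of 20.7 CPM and C1qc of 18.7 CPM. No promoter window was matched for C1qa. Each is the 250 bases before the RefSeq start (GRCm38.p6, minus strand, 5′ to 3′), with capitals for motif matches.
C1qb, chr4:136886201-136886450: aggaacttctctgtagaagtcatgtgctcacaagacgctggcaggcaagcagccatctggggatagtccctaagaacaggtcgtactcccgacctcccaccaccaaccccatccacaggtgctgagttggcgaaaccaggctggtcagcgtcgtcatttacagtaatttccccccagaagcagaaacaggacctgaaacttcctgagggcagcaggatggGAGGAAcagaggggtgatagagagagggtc
C1qc, chr4:136892915-136893164: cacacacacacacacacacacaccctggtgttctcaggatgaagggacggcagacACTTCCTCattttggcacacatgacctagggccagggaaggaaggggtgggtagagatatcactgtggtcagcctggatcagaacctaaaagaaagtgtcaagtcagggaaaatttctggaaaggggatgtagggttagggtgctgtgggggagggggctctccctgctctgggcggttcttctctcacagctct
Motifs were searched on both strands, and GAGGAA in C1qb and ACTTCCTC in C1qc each hold a match of the other strand. C1qc held GAGGAAGT, a site form of the microglial and myeloid factor PU.1, which 2.44% of 32851 promoter windows of this length hold. The shorter ETS core TTCCTC, which lies inside the PU.1 form, occurred in C1qb and C1qc and in 23.3% of all windows. Of the 5 members with a window, TATAAA (12.4% of all windows) and the AP-1 form TGACTCA (4.46%) occurred in C3ar1 alone. TTCNNNGAA (7.02%), a form bound by STAT factors, occurred in none of the 5.

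C3, the component on which all routes of activation converge, was counted at a low level with a wide spread. The gene (ENSMUSG00000024164.9) lies on the minus strand at chr17:57203970-57228136. It was at 2.64, 2.38, 2.21 and 3.31 CPM in naive libraries labelled RGS4 KO, against 2.52, 1.54, 1.83 and 2.04 CPM in naive WT. After CFA it was at 2.91, 2.84, 2.81 and 2.30 CPM in libraries labelled RGS4 KO, against 1.67, 3.34, 2.48 and 2.42 CPM in WT. The genotypes overlapped under both treatments. The log2 difference between genotypes was 0.44 (SE 0.19) in naive libraries and 0.13 (SE 0.17) after CFA. Its spread within groups was 20.2%, against 10.8% from counting.

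Serping1, the gene for C1 inhibitor, did not separate the genotypes. The gene (ENSMUSG00000023224.6) lies on the minus strand at chr2:84765387-84775444. It was at 4.503, 4.89, 5.57 and 4.18 CPM in naive libraries labelled RGS4 KO, against 3.80, 4.46, 4.45 and 5.71 CPM in naive WT. After CFA its means were 4.98 ± 0.356 CPM in libraries labelled RGS4 KO and 4.64 ± 0.882 CPM in WT (SD, n = 4 each). The log2 difference averaged over treatments was 0.07 (SE 0.09), with a 95% interval of -0.12 to 0.27.

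C3ar1, the receptor for the fragment C3a, was found at 22 to 121 reads per library. The gene (ENSMUSG00000040552.8) lies on the minus strand at chr6:122847138-122856161. It was at 1.52, 1.60, 1.21 and 1.32 CPM in naive libraries labelled RGS4 KO, against 1.23, 1.38, 1.54 and 0.870 CPM in naive WT. After CFA the ranges were 1.35 to 1.78 CPM in libraries labelled RGS4 KO and 1.20 to 1.57 CPM in WT. The genotypes overlapped, and the average log2 difference was 0.15 (SE 0.11).

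C5ar1, the signalling receptor for the fragment C5a, was higher in libraries labelled RGS4 KO at very low counts. The gene (ENSMUSG00000049130.5) lies on the minus strand at chr7:16246743-16259540 and had 10 to 48 reads per library. It was at 0.574, 0.433, 0.718 and 0.627 CPM in naive libraries labelled RGS4 KO, against 0.438, 0.317, 0.436 and 0.326 CPM in naive WT. After CFA it was at 0.610, 0.676, 0.652 and 0.568 CPM in libraries labelled RGS4 KO, against 0.329, 0.365, 0.503 and 0.276 CPM in WT. The CFA groups did not overlap, and over both treatments 7 of 8 libraries labelled RGS4 KO lay above the highest WT library. After CFA 3.78% of tested genes were separated in this direction, and the share over both treatments together was not counted. The log2 difference was 0.61 (SE 0.23) in naive libraries, 0.73 (SE 0.21) after CFA and 0.67 (SE 0.15) on average. The spread within groups of 19.2% did not exceed the 24.2% that counting alone gives at this depth.

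**Figure D2:**
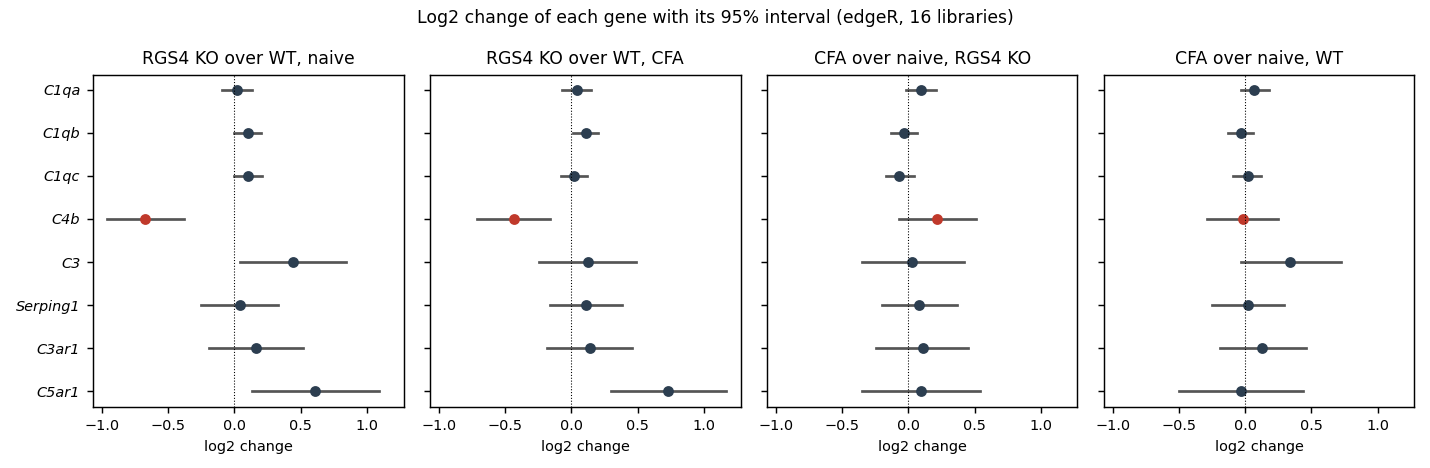
Log2 change (x axis) of each of the 8 genes with its 95% interval, in 4 contrasts from left to right: RGS4 KO over WT in naive libraries, RGS4 KO over WT after CFA, CFA over naive in libraries labelled RGS4 KO, and CFA over naive in WT. C4b (red) lies at -0.67 and -0.43 in the genotype panels and at 0.22 and -0.02 in the CFA panels, and C5ar1 lies at 0.61 and 0.73 in the genotype panels.

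Between the genotypes, 1 of the 8 genes passed an adjusted p of 0.05 in naive libraries (C4b, lower), where 1.45% of 18350 tested genes passed and 0.752% passed as lower. That count was 0 without naive libraries 6 and 7 labelled RGS4 KO, in 3 other settings, and in 5 of the 8 fits without 1 naive library, those leaving out libraries 6, 7 or 8 labelled RGS4 KO or WT libraries 2 or 3. After CFA 0 of the 8 passed in edgeR, where 1.6% of tested genes did, and DESeq2 called 1, C4b. There 3 of the 8 had an unadjusted p under 0.05, as had 2254 of the 18350 tested genes. Averaged over treatments 2 passed, C4b lower and C5ar1 higher, where 3.73% of tested genes passed, 1.99% as lower and 1.74% as higher. These counts rest partly on the values that chose the genes, and nothing is read from them. The 7 genes other than C4b had average log2 differences of 0.03 to 0.67, with a median of 0.103, beside -0.001 over all tested genes. All 7 were above 0 under each treatment too, except that C1qa, C3, Serping1 or C3ar1 fell below 0 in at least 1 alternative setting within a treatment, C3ar1 to -0.15 after CFA with libraries thinned to the shallowest. After CFA the groups did not overlap for C4b (lower) and C5ar1 (higher), as was so for 8.03% of tested genes, 4.25% lower and 3.78% higher. In naive libraries 0 of the 8 genes separated the groups, against 7.23% of tested genes.

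CFA changed none of the 8 genes detectably. These contrasts share their libraries with the genotype contrasts but were not used to choose the genes. In WT the log2 changes with CFA ran from -0.03 for C1qb to 0.34 for C3 (SE 0.18, 95% interval -0.03 to 0.72, adjusted p = 0.336). In libraries labelled RGS4 KO they ran from -0.07 for C1qc to 0.22 for C4b (SE 0.14, 95% interval -0.07 to 0.51, adjusted p = 0.749). C4b in WT had a change of -0.02 (SE 0.13, adjusted p = 0.962), with means of 17.3 CPM after CFA and 17.5 CPM in naive WT. By edgeR 0 of 8 passed in WT, where 2.23% of tested genes did, and 0 of 8 in libraries labelled RGS4 KO, where 0.185% did. At an unadjusted p under 0.05 the counts were also 0 in both, against 3223 and 1433 of the 18350 tested genes. DESeq2 called 0 of the 8 in both. Averaged over genotypes 0 passed, where 1.81% of tested genes did, and DESeq2 called 0. There C1qa alone of the 8 had an unadjusted p under 0.05, with a log2 change of 0.09 (SE 0.04, adjusted p = 0.287). Of the 18350 tested genes, 2686 had an unadjusted p under 0.05 in that contrast.

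The test of whether the CFA change differed between genotypes passed for 0 of the 8 genes, in edgeR and in DESeq2, and for 0.0654% of tested genes. No member had an unadjusted p under 0.05, against 1810 of the 18350 tested genes. For C4b the difference of the changes was 0.24 (SE 0.19, 95% interval -0.16 to 0.64, adjusted p = 0.703). For C3 it was -0.31 (SE 0.26, adjusted p = 0.721). The oculomotor and Edinger-Westphal marker sums were 288.9 to 434.1 CPM in WT after CFA and 43.1 to 70.7 CPM in naive WT, and their part in these CFA contrasts was not tested.

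Of 56 other complement genes listed by role, 41 passed the filter on low counts. The other 15 had 0 to 49 reads over all 16 libraries, among them C6, C8a, C8b and C9 of the pore-forming membrane attack complex, Mbl1 and Mbl2 of the lectin pathway, and Cfd and Cfi, proteases of the alternative pathway and of C3b breakdown. The highest levels per length were those of Clu, an inhibitor of the membrane attack complex, at 237.9 ± 8.75 RPKM, and Calr, a chaperone that binds C1q, at 123.9 ± 9.94 RPKM (SD, n = 16). Itgam, a chain of the phagocytic receptor CR3, was at 3.37 ± 0.347 RPKM.

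Averaged over treatments, 2 of these 41 genes were higher in libraries labelled RGS4 KO and 0 lower, beside 3.73% of tested genes called. The median log2 difference of the 41 was 0.002, beside -0.001 for all tested genes, and describes only genes that passed the filter. In naive libraries 1 of the 41 was higher and 0 lower, beside 1.45% of tested genes called. After CFA again 1 was higher and 0 lower, beside 1.6% of tested genes called. The classical pathway proteases with C4a (6 tested genes), the alternative pathway (2), terminal components (3), soluble regulators (4), membrane regulators (6) and neuronal sushi-domain proteins (7) had 0 called genes in the average contrast. Of these 41 genes, 8 had an unadjusted p under 0.05 in that contrast, as had 2630 of all 18350 tested genes. DESeq2 called the same 2 of the 41 as edgeR.

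C5ar2, a second receptor for C5a that does not couple to G proteins, was the called gene under each treatment. It lies next to C5ar1 at chr7:16234585-16244154 (ENSMUSG00000074361.3), 2.589 kb away on the same strand, and had 2 to 40 reads per library. It was at 0.620, 0.562, 0.607 and 0.383 CPM in naive libraries labelled RGS4 KO, against 0.109, 0.113, 0.0908 and 0.163 CPM in naive WT. After CFA it was at 0.509, 0.536, 0.408 and 0.413 CPM in libraries labelled RGS4 KO, against 0.0471, 0.288, 0.242 and 0.184 CPM in WT. All 8 libraries labelled RGS4 KO lay above all 8 of WT. Within a treatment the genotypes did not overlap for 7.23% of tested genes in naive libraries and 8.03% after CFA. The share over both treatments together was not counted. The fold was 4.59 in naive libraries (log2 2.20, SE 0.37, adjusted p = 0.00241) and 2.40 after CFA (log2 1.26, SE 0.30, adjusted p = 0.0323). The average log2 difference was 1.73 (SE 0.24, adjusted p = 9.39e-05). The CFA call was lost without naive libraries 6 and 7 labelled RGS4 KO (adjusted p = 0.0543), and in 5 of 8 fits without 1 CFA library. With libraries thinned to the shallowest, the naive log2 difference was 1.45 (adjusted p = 0.416) and that after CFA 2.06 (adjusted p = 0.198), so both calls were lost and the order of the 2 differences turned, while the average was 1.75 (adjusted p = 0.0321). CFA did not change C5ar2 detectably, with log2 changes of -0.19 (SE 0.28, adjusted p = 0.927) in libraries labelled RGS4 KO and 0.75 (SE 0.41, adjusted p = 0.348) in WT.

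Colec11, a soluble lectin that starts the lectin pathway, was the other. It was at 0.660 ± 0.240 CPM in naive libraries labelled RGS4 KO and 0.370 ± 0.0760 CPM in naive WT (SD, n = 4 each). After CFA it was at 0.542 ± 0.143 CPM in libraries labelled RGS4 KO and 0.315 ± 0.0402 CPM in WT. Its log2 difference was 0.76 under each treatment, with an adjusted p of 0.185 in naive libraries and 0.176 after CFA. On average it was 0.76 (SE 0.18, adjusted p = 0.0221), and 0.58 without naive libraries 6 and 7 labelled RGS4 KO, where the call was lost (adjusted p = 0.12). With libraries thinned to the shallowest the average was 1.04 and the call was also lost (adjusted p = 0.297). Colec11 had 10 to 40 reads per library. Masp1, a lectin pathway protease, had naive groups that did not overlap (13.1 ± 0.725 CPM in libraries labelled RGS4 KO and 11.4 ± 0.415 CPM in WT), with an adjusted p of 0.0957. The naive groups did not overlap for 7.23% of all tested genes, so nothing is read from this.

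**Figure D3:**
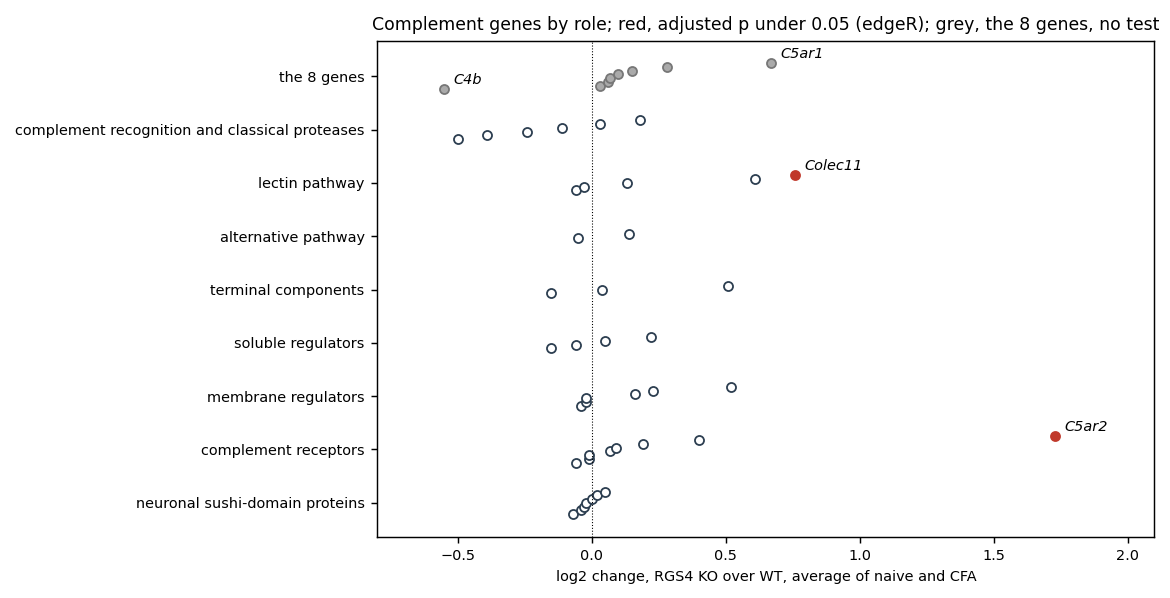
Log2 difference between libraries labelled RGS4 KO and WT, averaged over treatments (x axis), for the 8 genes and 41 other tested complement genes in rows by role. The 8 genes, chosen with these values known, are drawn in grey without a test, with C4b at -0.55 and C5ar1 at 0.67. Of the other genes, red points passed an adjusted p of 0.05, Colec11 at 0.76 and C5ar2 at 1.73.

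CFA changed 0 of the 41 other genes by edgeR in WT, in libraries labelled RGS4 KO and on average, and 0 in the test of a difference between genotypes. Of all tested genes, 2.23% were called in WT, 0.185% in libraries labelled RGS4 KO, 1.81% on average and 0.0654% in the test of the difference. At an unadjusted p under 0.05 the counts were 7 in WT, 0 in libraries labelled RGS4 KO, 3 on average and 5 in the test of the difference. Of all 18350 tested genes the counts were 3223, 1433, 2686 and 1810 in the same order. DESeq2 called 1 of the 41, Calr, in WT and on average, and 0 in the other contrasts. Calr was at 387.6 ± 10.4 CPM in WT after CFA and 342.2 ± 32.6 CPM in naive WT (SD, n = 4 each). It was at 361.0 ± 24.0 CPM in libraries labelled RGS4 KO after CFA and 336.3 ± 14.7 CPM in naive ones.

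The receptor promoters are shown because C5ar1 and C5ar2 adjoin and differed in the same direction. Each is the 250 bases before a RefSeq start (GRCm38.p6, minus strand, 5′ to 3′), and neither window holds any of the motifs searched. A second RefSeq start of C5ar2 has a window with the ETS core TTCCTC, at chr7:16242332-16242581, not printed here.
C5ar1, chr7:16259339-16259588: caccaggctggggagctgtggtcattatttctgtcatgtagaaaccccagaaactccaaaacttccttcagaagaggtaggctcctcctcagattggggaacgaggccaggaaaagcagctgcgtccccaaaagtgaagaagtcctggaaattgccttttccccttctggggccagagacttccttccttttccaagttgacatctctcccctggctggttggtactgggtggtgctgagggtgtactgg
C5ar2, chr7:16244155-16244404: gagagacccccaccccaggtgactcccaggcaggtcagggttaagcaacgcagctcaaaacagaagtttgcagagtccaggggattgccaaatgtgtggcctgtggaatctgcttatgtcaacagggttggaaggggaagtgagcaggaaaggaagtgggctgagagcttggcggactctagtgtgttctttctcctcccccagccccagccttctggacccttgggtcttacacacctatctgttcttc

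Many genes around C5ar1 differed between the genotypes. Averaged over treatments, 14 of the 38 tested genes that start within 1 Mb of C5ar1 were called (36.8%, against 3.73% of all tested genes). Libraries labelled RGS4 KO had 5 of these higher and 9 lower. Within 5 Mb, 37 of 123 were called (30.1%). Among the nearest, the helicase gene Dhx34 had a log2 difference of -0.45 (SE 0.05, adjusted p = 4.18e-06), Kptn -0.37 (SE 0.04, adjusted p = 6.23e-06) and Sae1, a subunit of the SUMO-activating enzyme, -0.26 (SE 0.03). Inafm1, at 0.17 (SE 0.03), and Ceacam9, at 1.64 (SE 0.41), were higher. The called genes lay on both sides of C5ar1 and in both directions. No test was made of this clustering.

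Around the other members the shares called lay between 0 and 7.32%. Within 1 Mb of C3 3 of 41 tested genes were called (7.32%), and 0 within 1 Mb of Serping1, C3ar1 and the C1q genes. Within 1 Mb of C4b, a stretch of the major histocompatibility complex, 4 of 105 tested genes were called (3.81%). These were the class II antigen presentation genes H2-Aa, at 0.82 (SE 0.21), and H2-Eb1, at 0.70 (SE 0.12), the class I gene H2-Q2, at 0.40 (SE 0.09), and Angptl4, an inhibitor of lipoprotein lipase, at -0.40 (SE 0.07). Within 5 Mb the counts were 6 of 207 for C4b (2.9%), 4 of 192 for C1qc (2.08%), 4 of 75 for C3 (5.33%), 6 of 127 for C3ar1 (4.72%) and 0 of 39 for Serping1. The CFA average gave 0 called genes of 38 within 1 Mb of C5ar1.

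**Figure D4:**
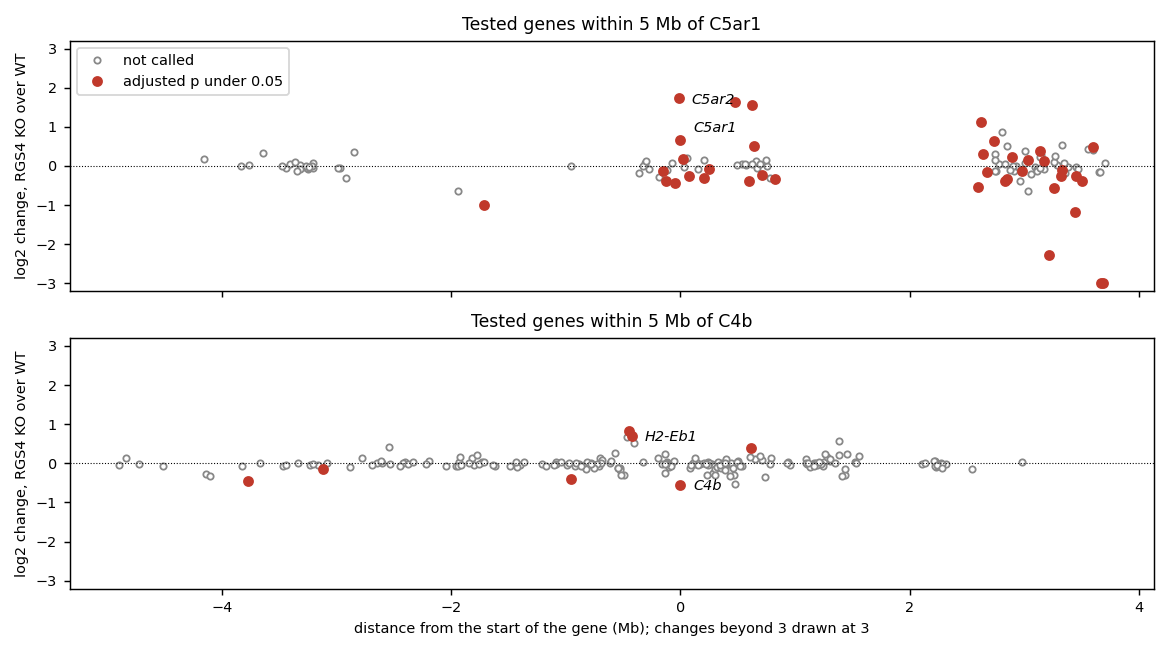
Log2 difference between libraries labelled RGS4 KO and WT, averaged over treatments (y axis), of tested genes by distance in Mb from the start of C5ar1 (top) and of C4b (bottom). Red points passed an adjusted p of 0.05 and changes beyond 3 are drawn at 3. Around C5ar1 37 of 123 genes passed, and around C4b 6 of 207.

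Within groups, C4b did not vary with the other members in a way that passed a test. Deviations of log2 CPM from the group means were correlated over the 16 libraries for all 28 pairs, with labels permuted within groups. None of the 28 passed after adjustment, with a lowest adjusted p of 0.394 for Pearson's r and 2 pairs at an unadjusted p under 0.05. C1qa and C3 had r = 0.66 (permutation p = 0.0141) and rho = 0.49 (permutation p = 0.0756), with r = 0.49 without the 2 most distant libraries. C1qb and C1qc had r = 0.44 (permutation p = 0.0296) and rho = 0.58 (permutation p = 0.0185), with r = 0.64 without 2 libraries. C4b had r between -0.24 and 0.41 with the other 7 genes.

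Over the 16 libraries, the levels most like that of C4b among 15023 tested genes (mean 1 CPM or more) were those of Pqlc3 (r = 0.90), 1700017B05Rik (r = 0.90), Adhfe1 (r = 0.89), Ercc5 (r = 0.89) and Hjurp (r = 0.88). With group means removed these were 0.75, 0.77, 0.45, 0.53 and 0.41, so group differences carry part of each likeness, and more of it for the last 3. Most like C1qa were a gene with no symbol (ENSMUSG00000029144.10, r = 0.88), Rgs8 (r = 0.84), Plcb4 (r = 0.82), Ptgfrn (r = 0.81) and Rnf4 (r = 0.80). C4a had r = 0.45 with C4b, and Rgs4 had 0.13. These values describe 16 libraries and carry no test. All genes of a library share its depth and its punches, which differ between libraries.

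Of 12 interferon-induced genes, 3 were lower in libraries labelled RGS4 KO and 0 higher in the average contrast, the direction of C4b, where 1.99% of tested genes were called as lower. In naive libraries 1 of the 12 was called lower by edgeR, where 0.752% of tested genes were. After CFA 0 of the 12 were called, where 1.6% of tested genes were. In each treatment 3 of the 12 had an unadjusted p under 0.05. Of all 18350 tested genes, 2527 did so in naive libraries and 2254 after CFA. The 12 genes, of which 0 were at 0 reads, summed to 98.2 to 102.6 CPM in naive libraries labelled RGS4 KO and 106.4 to 113.0 CPM in naive WT. After CFA they summed to 102.8 to 108.3 CPM in libraries labelled RGS4 KO and 107.4 to 121.8 CPM in WT. The naive groups did not overlap and the CFA groups did. Taken singly, 7.23% of tested genes had naive groups that did not overlap, and no such share was counted for sums. The 3 genes were Oasl2 at -0.83 (SE 0.12, adjusted p = 0.000291), the signal carrier Stat2 at -0.14 (SE 0.03, adjusted p = 0.015) and Ifi27 at -0.24 (SE 0.06, adjusted p = 0.0293).

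Astrocytes are a source of C4. The 12 astrocyte markers, with 0 at 0 reads, summed to 4605 to 4920 CPM in naive libraries labelled RGS4 KO and 4699 to 4772 CPM in naive WT, which overlap. After CFA they summed to 4404 to 4674 CPM in libraries labelled RGS4 KO and 4806 to 4987 CPM in WT, which do not. Taken singly, 8.03% of tested genes had CFA groups that did not overlap, and no such share was counted for sums. Of the 12, 1 was called in the average contrast, where 3.73% of tested genes were, the neurotensin receptor gene Ntsr2, at -0.29 (SE 0.04, adjusted p = 0.000722). In that contrast 10 of the 12 lay below 0, with a median log2 difference of -0.053. There 4 of the 12 had an unadjusted p under 0.05, as had 2630 of the 18350 tested genes. Below 0 were 7 of the 12 in naive libraries, with 1 at an unadjusted p under 0.05, and 10 after CFA, with 4. Of all 18350 tested genes, 2527 in naive libraries and 2254 after CFA had an unadjusted p under 0.05. Of 12 reactive astrocyte genes 10 were tested and 0 called in the genotype contrasts by edgeR. Of all tested genes 1.45% were called in naive libraries, 1.6% after CFA and 3.73% on average. At an unadjusted p under 0.05 there was 1 reactive astrocyte gene in naive libraries and 0 after CFA and on average. The 12 reactive astrocyte genes summed to 128.8 to 192.2 CPM in naive libraries labelled RGS4 KO and 189.3 to 243.6 CPM in naive WT. After CFA they summed to 172.3 to 233.5 CPM in libraries labelled RGS4 KO and 193.5 to 221.7 CPM in WT. In these bulk punches fewer cells of a type and less RNA per cell cannot be told apart, and the part of these lists in the C4b difference was not tested.

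**Figure D5:**
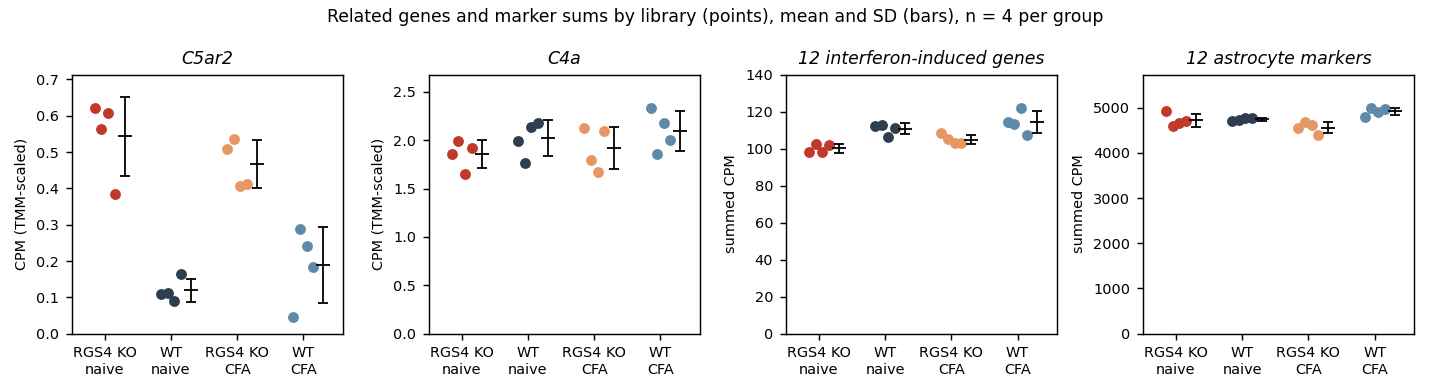
Levels by group (x axis) of C5ar2 and C4a in CPM and summed levels of 12 interferon-induced genes and 12 astrocyte markers in CPM (y axes), with points for libraries and bars for the mean and SD (n = 4 per group). C5ar2 lies above all WT libraries in all 8 libraries labelled RGS4 KO, and the interferon-induced sum lies at 98.2 to 102.6 CPM in naive libraries labelled RGS4 KO and 106.4 to 113.0 CPM in naive WT.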

How the data were processed

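For each of 16 thalamus libraries the authors deposited unnormalised read counts by Ensembl gene. Per the labels' protocols, total RNA was extracted in TRIzol and prepared with version 2 of the unstranded TruSeq RNA kit. TopHat, DESeq2 and mm10 are named in the submitters' processing notes. The counter is known only from the closing lines of each deposited table, of the form HTSeq writes, and neither its annotation nor its strand setting is stated. Reads listed as without a feature, ambiguous or not uniquely aligned (38.0% to 39.9%) were left out of library sizes.

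The 8 genes, the lists of complement genes and markers and the tests were chosen with earlier results of these data known. Groups came from the genotype and treatment labels. The protocol calls the libraries biological replicates, so p-values measure the spread between pools of mice. Replicates differed beyond sampling noise (chi-square per degree of freedom 3.38 to 13.2 over 24 pairs), so all 16 were kept.

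Counts were fitted with edgeR 4.0.16 (R 4.3.3), with TMM factors, filterByExpr at a minimum count of 10 (18350 genes, 99.96% of counts) and robust quasi-likelihood tests with 1 mean per group. The common biological coefficient of variation was 6.1%. P-values were two-sided, Benjamini-Hochberg adjusted over every tested gene, and called under 0.05. Every adjusted p not credited to another tool is from this test. Contrasts were genotype and CFA within each level of the other, their averages and their interaction. Levels are CPM, and RPKM divides them by summed exon length. Exons, transcripts and symbols came from the GENCODE annotation in mm10, which matched 37607 of 38924 IDs. Promoters came from RefSeq, with windows matched for 5 of the 8 genes. The fit was tested on simulated counts.

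Alternatives were DESeq2 1.42.0, RLE factors, no low-count filter, a fit on only the 2 groups compared, libraries thinned to 18.1 M counts, each library left out, and, chosen after seeing the data, leaving out naive libraries 6 and 7 labelled RGS4 KO. Named are all 8 genes and C4a, each called gene of the other complement genes and otherwise up to 3 per role by level, the 5 genes most like C4b and C1qa, Rgs4, and of the markers only sums and called genes. Untested and neighbouring genes were named after their values were seen.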

Additional observations from a re-analysis of the deposited data

Results flagged for a closer look

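A single library stood far from the others of its group for 2 of the 8 genes. C4b was at 14.1 CPM in naive library 5 labelled RGS4 KO, while the nearest of the other 3 naive libraries labelled RGS4 KO was at 10.04 CPM. The gap was 0.870 of the range of the group, above Dixon's critical value for 4 samples. Without that library the naive log2 difference of C4b was -0.85, against -0.67 with all libraries. C3 was at 2.30 CPM in library 16 labelled RGS4 KO after CFA, and the nearest of the other 3 was at 2.81 CPM, a gap of 0.841 of the range. In all, 32 groups were checked, and chance marks about 1 group in 20.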

How the results depend on the processing

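No paired analysis was possible because library numbers run through the series and no number is shared between groups. Of the 8 genes, 1 was called between genotypes in naive libraries (C4b), and 0 were in the fit on the 2 groups compared, with libraries thinned, with no filter on low counts and without naive libraries 6 and 7 labelled RGS4 KO. C4b was chosen on these values, so the counts say nothing of how stable it would be elsewhere. Leaving out single libraries gave 0 to 1, with C4b lost without naive libraries 6, 7 and 8 labelled RGS4 KO and WT libraries 2 and 3. After CFA 0 were called, but 1 (C4b) in DESeq2 and in the fit on the 2 groups, and single libraries left out gave 0 to 1 (C5ar1 without WT library 11). On average 2 were called, but 1 with libraries thinned (C5ar1 lost), and single libraries left out gave 2 to 3 (C1qb added without WT library 12). The average log2 difference of C4b ran from -0.64 to -0.50 over all alternatives.

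Of the other complement genes, the naive count of 1 (C5ar2) was 0 with libraries thinned and 1 to 1 with single libraries left out. After CFA the count of 1 was 0 in the fit on the 2 groups, with libraries thinned and without naive libraries 6 and 7 labelled RGS4 KO, and 0 to 1 with single libraries left out. C5ar2 was then lost without WT libraries 9 (0.0625) and 12 (0.0833) and libraries 13 (0.118), 14 (0.0909) and 16 (0.0568) labelled RGS4 KO. On average the count of 2 was 1 with libraries thinned and without naive libraries 6 and 7, with Colec11 lost each time. With single libraries left out it was 1 to 2 (Colec11 lost without libraries 6 and 16 labelled RGS4 KO). With CFA in WT the count of 0 was 1 in DESeq2 (Calr) and in the fit on the 2 groups (Sez6), and 0 to 1 with single libraries left out. Averaged over genotypes 0 was 1 in DESeq2 (Calr), and 0 to 1 with single libraries left out. The cause was not tested.

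Small CFA changes that did not pass a test turned sign. With libraries thinned, CFA in WT gave -0.02 for C1qa, 0.06 for C4b, -0.20 for Serping1 and 0.21 for C5ar1, CFA in libraries labelled RGS4 KO gave -0.25 for C3ar1, and the CFA average gave -0.06 for Serping1 and -0.09 for C3ar1. The interaction of C1qb was then -0.06. Without naive libraries 6 and 7 labelled RGS4 KO, CFA in libraries labelled RGS4 KO gave -0.11 for C3, and the interaction was -0.06 for C1qa and -0.02 for C1qb. With single libraries left out, CFA in WT ran from -0.07 to 0.00 for C1qb, -0.02 to 0.04 for C1qc, -0.12 to 0.09 for C4b, -0.09 to 0.13 for Serping1 and -0.23 to 0.08 for C5ar1. CFA in libraries labelled RGS4 KO ran from -0.03 to 0.16 for C3 and -0.00 to 0.17 for C5ar1. The CFA average ran from -0.00 to 0.11 for Serping1 and -0.06 to 0.09 for C5ar1. The interaction ran from -0.01 to 0.06 for C1qa, -0.03 to 0.05 for C1qb, -0.05 to 0.17 for Serping1 and -0.15 to 0.10 for C3ar1. Few reads limit the precision of the receptors, since C5ar1 had 10 to 48 reads per library and C5ar2 2 to 40.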
